A study of Homo sapiens and Mus musculus with 20 samples.

Results

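The genes of glucose uptake and upper glycolysis were followed across 3 treatments of IMR90, a diploid fibroblast line from human fetal lung. Members were the genes with the symbols SLC2A1, SLC2A3, HK1, HK2, GPI, PFKL, PFKM, PFKP, PFKFB3 and PFKFB4, and all 10 were listed in each table, among 17554 genes listed for at least 1 of the comparisons. The cells were labelled as wild-type fibroblasts. They received A485, an inhibitor of the histone acetyltransferases p300 and CBP, MS-275 (entinostat), which inhibits the class I histone deacetylases, or pyruvate. Each treatment had its own untreated control, named Control2 for A485, Control3 for MS-275 and Control6 for pyruvate, with 2 libraries in every group. The pyruvate experiment of the study used cells in replicative senescence, whereas the labels give no passage, dose or time for any of these libraries. All libraries come from a single cell line, and nothing in the labels says that replicates came from separate cultures, so the p-values measure only the spread between these libraries, which may be technical.

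Glucose enters fibroblasts through facilitative transporters of the SLC2A (GLUT) family and is trapped by hexokinase as glucose 6-phosphate. Glucose 6-phosphate isomerase turns this into fructose 6-phosphate, which phosphofructokinase commits to glycolysis. The bifunctional PFKFB enzymes make and break fructose 2,6-bisphosphate, the strongest allosteric activator of phosphofructokinase. Several of these genes are classical targets of the hypoxia-inducible factors. Glycolysis ends in pyruvate and lactate, and the study asked how lactate-derived histone marks bear on senescence, so the comparisons ask what each treatment did to the genes that feed this pathway.

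Values are read counts per gene divided by a size factor for each library, called normalized counts here. Depth ran from 24179065 to 46971227 reads in genes across the 12 libraries, and the lowest read count of any member in any library was 273. A gene was called when its adjusted p was under 0.05 (limma with Benjamini-Hochberg adjustment over all genes tested) and its absolute log2 fold change above 1. All 8 fibroblast markers were listed in each table, whereas CDH1, PTPRC, PECAM1 and ACTA1 (defining epithelial, leukocyte, endothelial and muscle markers) were in none of them. Of the other markers of these cell types, EPCAM, LYZ, VWF and KDR were listed in some tables, and each list summed to at most 6.26 RPM (reads scaled to the library total). EPCAM (epithelial) had 64.2 and 47.7 normalized counts in Control2 and 208 and 177 after A485 and was called higher (log2 fold change 1.78, limma adjusted p 0.0367). VWF (endothelial) was called lower after A485, with 34.2 and 102 in Control2 and 0 in both A485 libraries, and after pyruvate, with 164 and 104 in Control6 and 33.4 and 46.2 in treated libraries. Their part in the member values was not tested. The 3 tables were normalized separately, so levels are compared only within a table and effects between tables. In bulk RNA, fewer cells of a state and less RNA per cell cannot be told apart. Scaling mattered. When libraries were scaled to the same total instead, the all-gene median of the log2 fold change went from 0.01 to 0.40 for A485, from -0.01 to -0.15 for MS-275 and from -0.01 to 0.30 for pyruvate.

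The stretches before the start sites of SLC2A1, HK2 and PFKFB3 are shown as examples of a transporter, a hexokinase and a regulator of phosphofructokinase that has the E-box described below, all with a usable start site. RefSeq promoter windows (GRCh38.p14) were found for 9 of the 10 members, and 5 of them began at the start of the GENCODE canonical transcript. Bases that any annotated exon covers were left out. The stretches are chr1:42958894-42959048 (minus strand) for SLC2A1, chr2:74833988-74834126 (plus strand) for HK2 and chr10:6202694-6202865 (plus strand) for PFKFB3, each written 5′ to 3′ with ACGTG and GCGTG on either strand in capitals. These letters are the core of the element bound by hypoxia-inducible factors.
SLC2A1: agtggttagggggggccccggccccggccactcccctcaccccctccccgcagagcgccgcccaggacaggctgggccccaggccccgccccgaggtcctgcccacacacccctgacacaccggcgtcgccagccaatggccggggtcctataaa
HK2: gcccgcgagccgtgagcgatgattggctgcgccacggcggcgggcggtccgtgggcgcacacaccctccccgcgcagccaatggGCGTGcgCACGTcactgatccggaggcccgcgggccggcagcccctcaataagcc
PFKFB3: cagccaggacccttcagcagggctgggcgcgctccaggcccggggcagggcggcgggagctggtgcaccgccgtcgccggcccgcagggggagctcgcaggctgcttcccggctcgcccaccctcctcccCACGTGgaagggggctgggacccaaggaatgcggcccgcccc
Within the whole window of 250 bases before the start, SLC2A1 held neither core, HK2 held ACGTG at 2 positions and GCGTG at 1, and PFKL and PFKFB4 each held GCGTG at 1. In PFKFB3 the 2 ACGTG matches are the overlapping strands of a single CACGTG, the E-box that MYC and the glucose-responsive factor MLXIPL (ChREBP) can bind. Across the windows of 27305 genes, 18.7% held ACGTG, 31.9% held GCGTG, 43.1% held either core and 6.49% held CACGTG. A match is a description of these letters, and elements outside the windows were not searched.

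After A485, 2 of the 10 members fell, PFKP and HK2, and none rose. Among 16084 genes tested, 7.06% were called lower and 3.31% higher, so 31.9% of all calls were higher, against 65.0% with equal library totals. Members had a median log2 fold change of -0.41, beside 0.01 over all genes. Without regard to size, 7 members were lower in both A485 libraries than in both controls (30.7% of all genes) and 1 member was higher (30.4% of all genes). The member shares of the reads differed little, at 0.122% and 0.117% in Control2 and 0.102% and 0.114% in A485 libraries.

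With MS-275 most members had values in the other direction, and none passed the test. Of 15883 genes tested, 0% were called higher and 0% lower, while 1730 genes had an unadjusted p under 0.05 and the smallest adjusted p of any gene was 0.142. The median log2 fold change of the members was 0.87, beside -0.01 over all genes, and 9 members lay above 0. In 7 members both MS-275 libraries were above both controls, a pattern seen in 19.5% of genes, and no member had both below, a pattern seen in 19.3%. Members held 0.10% and 0.137% of reads in Control3 and 0.20% and 0.285% in MS-275 libraries. This share sums the reads of unequal members, and SLC2A1 alone had mean normalized counts of 6979 in Control3 and 40873 after MS-275.

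After pyruvate 6 of the 10 members were called lower and none higher. Calls were common in this comparison, with 23.1% of 12013 genes called lower and 31% higher, so 57.3% of calls were higher, against 71.7% with equal library totals. All 10 members were lower in both pyruvate libraries than in both controls, as were 45.3% of genes, while 45.2% were higher. The median log2 fold change of the members was -1.06, beside -0.01 over all genes. This comparison had a trend on GC content, described below, and the all-gene shares are not matched for it. With the trend on GC content and transcript length removed, 3 members were called lower, beside 13.2% of genes. The member median was then -0.69, and 2 members lay above 0. Their share of reads went from 0.375% and 0.359% in Control6 to 0.216% and 0.22% after pyruvate. SLC2A1 alone had mean normalized counts of 37641 in Control6 and 11937 after pyruvate.

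**Figure D1:**
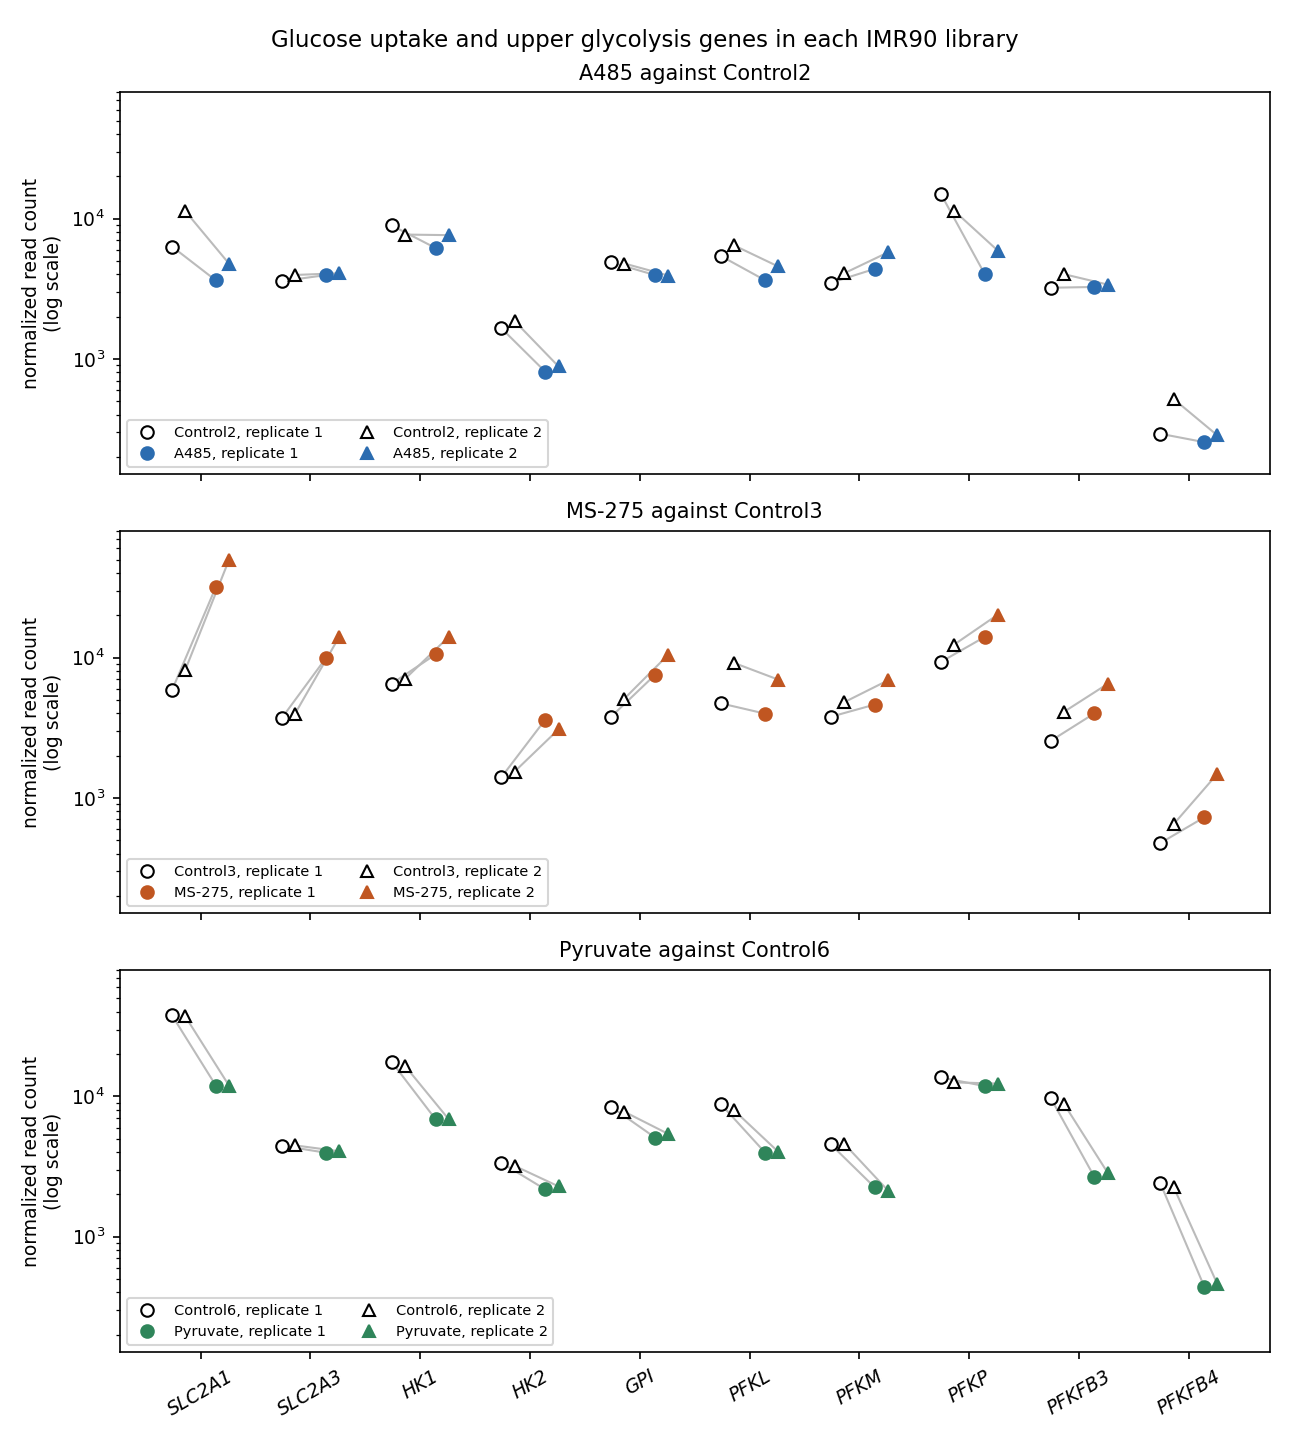
Normalized counts on a log axis for the 10 genes in each of the 12 IMR90 libraries, with open symbols for controls, filled symbols for treated libraries, circles for replicate 1, triangles for replicate 2 and grey lines joining libraries of the same number. SLC2A1 spans 3624 to 11346 in the A485 panel, 5843 to 49854 in the MS-275 panel and 11935 to 37924 in the pyruvate panel.

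SLC2A1 encodes GLUT1, the basal glucose transporter of most dividing cells, and lies at hg38 chr1:42925353-42958893. It measured 6326 and 11346 in Control2 and 3624 and 4769 in A485 libraries. The groups did not overlap, but the controls differed by almost as much as the groups, and the log2 fold change of -1.03 (SE 0.31) did not pass (limma adjusted p 0.0820). On recovered reads DESeq2 called it (-1.07, adjusted p 0.0117) and edgeR did not (-1.05, adjusted p 0.0753). After MS-275, SLC2A1 stood at 31892 and 49854 against 5843 and 8115 in Control3. This was the largest member response to MS-275, a 5.86-fold difference of means (log2 fold change 2.53, SE 0.38, limma adjusted p 0.174), and it lay at the 98.1 percentile of all genes tested. With pyruvate the values were 11939 and 11935, against 37924 and 37358 in Control6. SLC2A1 fell by 1.66 on the log2 scale here (SE 0.05, limma adjusted p 2.34e-10).

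SLC2A3 encodes GLUT3, a transporter of high glucose affinity (hg38 chr12:7919230-8019007). Its near-identical neighbour SLC2A14 may share reads with it, so its values are uncertain. It measured 3585 and 3964 in Control2, while the A485 libraries had 3954 and 4079 and so overlapped (log2 fold change 0.09, SE 0.16, limma adjusted p 0.741). After MS-275 it stood at 9868 and 13912, against 3701 and 3969 in Control3. Both treated libraries were well above both controls (log2 fold change 1.61, SE 0.33, limma adjusted p 0.243). Pyruvate libraries held 3972 and 4069 and Control6 libraries 4454 and 4477. That difference is small (log2 fold change -0.15, SE 0.06, limma adjusted p 0.0434), and it turned to 0.16 with equal library totals.

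HK1, the hexokinase found in nearly all tissues (hg38 chr10:69269984-69401884), and HK2, the inducible isoform of muscle and of growing cells (hg38 chr2:74834127-74893359), were called in different comparisons. HK2 counts were 1651 and 1859 in Control2 and 808 and 883 after A485. Both A485 libraries lay below both controls, and HK2 fell by 1.05 on the log2 scale (SE 0.19, limma adjusted p 0.0212). With any 1 of the 4 libraries left out HK2 no longer passed (limma adjusted p 0.0679 to 0.170), and with equal library totals its log2 fold change was -0.66. HK1 counts were 8949 and 7697 in Control2 and 6176 and 7624 after A485, a difference that did not pass (log2 fold change -0.27, SE 0.19, limma adjusted p 0.376) and that was 0.12 with equal library totals.

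After MS-275, HK2 counts were 3615 and 3076, against 1403 and 1537 in Control3 (log2 fold change 1.18, SE 0.30, limma adjusted p 0.303). HK1 counts were 10515 and 14044, against 6508 and 7015 (log2 fold change 0.85, SE 0.31, limma adjusted p 0.440). Neither gene overlapped between the groups, and neither passed. Under pyruvate HK1 went from 17673 and 16577 to 6879 and 6875 and fell by 1.32 on the log2 scale (SE 0.06, limma adjusted p 2.75e-09). HK2 went from 3362 and 3199 to 2172 and 2283, a log2 fold change of -0.56 (SE 0.07, limma adjusted p 2.28e-05) that is under the fold change limit. With the trend on GC content and transcript length described below removed, HK1 stood at -0.69 and HK2 at -0.49, both under the limit.

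GPI encodes glucose 6-phosphate isomerase (hg38 chr19:34359480-34402413) and was called in no comparison. Its counts were 4874 and 4783 in Control2 and 3955 and 3927 after A485 (log2 fold change -0.29, SE 0.15, limma adjusted p 0.254), a difference that was 0.10 with equal library totals. They were 3790 and 5097 in Control3 and 7546 and 10492 after MS-275 (log2 fold change 1.02, SE 0.35, limma adjusted p 0.404). The MS-275 libraries were both above the controls, and the pyruvate libraries both below theirs. Pyruvate values were 5083 and 5397, against 8431 and 7772 in Control6 (log2 fold change -0.63, SE 0.07, limma adjusted p 3.47e-06).

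The 3 phosphofructokinase subunit genes had unlike values after A485. An exact permutation test of the PFKL to PFKP and PFKM to PFKP ratios gave p 0.333. This is the lowest p possible with 2 libraries against 2. PFKP, the platelet-type subunit (hg38 chr10:3066333-3137718), measured 15060 and 11423 in Control2 and 4032 and 5909 after A485. It was the member that fell most, by 1.43 on the log2 scale (SE 0.25, limma adjusted p 0.0208). With any 1 of the 4 libraries left out PFKP did not pass either (limma adjusted p 0.0728 to 0.161, log2 fold change -1.70 to -1.15). PFKM, the muscle-type subunit (hg38 chr12:48105139-48146404), measured 3489 and 4071 in Control2 and 4383 and 5747 after A485, both above the controls (log2 fold change 0.41, SE 0.20, limma adjusted p 0.223). PFKL, the liver-type subunit (hg38 chr21:44300051-44327376), measured 5403 and 6433 in Control2 and 3637 and 4558 after A485 (log2 fold change -0.53, SE 0.19, limma adjusted p 0.125).

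In the MS-275 comparison PFKP counts were 9289 and 12332 in Control3 and 14014 and 20234 in treated libraries (log2 fold change 0.65, SE 0.35, limma adjusted p 0.631). PFKL was the only member with a log2 fold change below 0, at -0.32 (SE 0.49, limma adjusted p 0.939), with 4708 and 9140 in Control3 and 3981 and 6962 in MS-275 libraries. Its groups overlapped widely, yet within each replicate number it was lower after treatment. PFKM counts were 3783 and 4794 in Control3 and 4621 and 6877 after MS-275 (log2 fold change 0.40, SE 0.36, limma adjusted p 0.813).

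With pyruvate PFKL fell from 8786 and 7939 to 3982 and 4035 (log2 fold change -1.06, SE 0.07, limma adjusted p 5.02e-08), but without Control6 replicate 1 its log2 fold change of -0.99 was under the limit. PFKM fell from 4543 and 4611 to 2243 and 2131 (log2 fold change -1.07, SE 0.07, limma adjusted p 5.99e-08). With equal library totals both stood at -0.75, under the limit. PFKP stood apart from both. It measured 13663 and 12598 in Control6 and 11856 and 12355 after pyruvate (log2 fold change -0.12, SE 0.06, limma adjusted p 0.0902), and its log2 fold change was 0.19 with equal library totals.

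**Figure D2:**
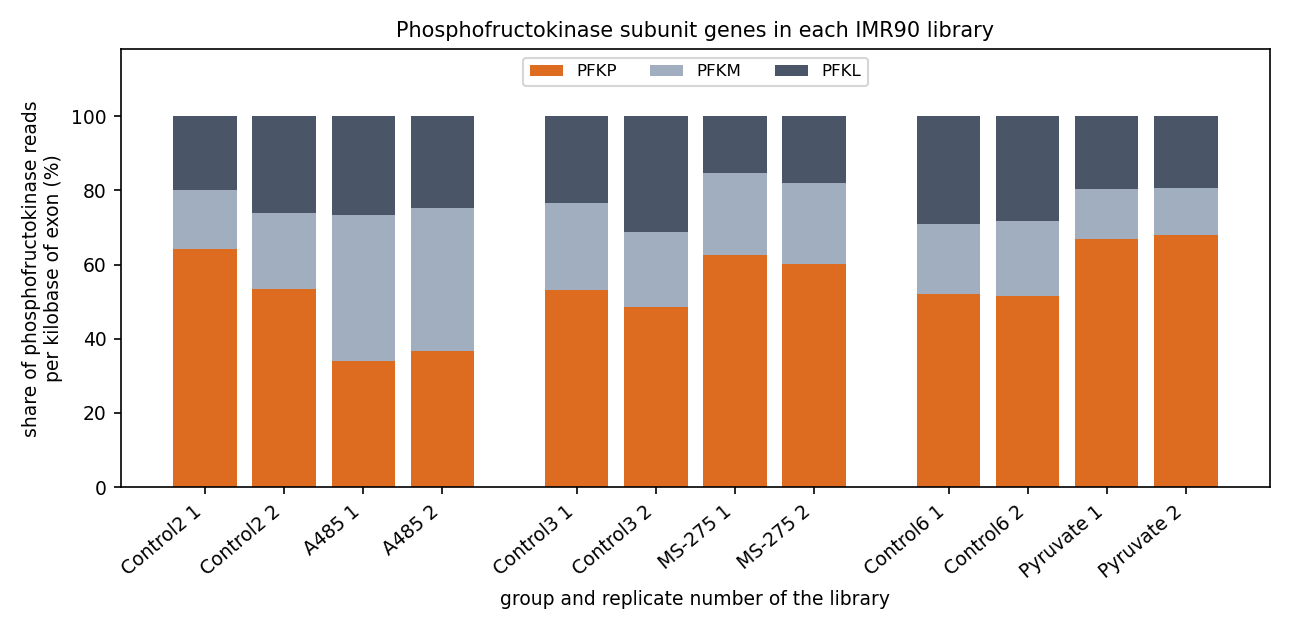
Stacked bars give the share of each phosphofructokinase subunit gene in the reads per kilobase of exon summed over PFKL, PFKM and PFKP, for each of the 12 IMR90 libraries. The PFKP share is 64.1% and 53.4% in Control2 and 33.9% and 36.8% in A485 libraries.

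Seen as shares of phosphofructokinase transcripts per kilobase of exon, the balance of subunits can be read within each library, where the size factor plays no part. PFKP made up 64.1% and 53.4% of the sum in Control2 and 33.9% and 36.8% after A485. The PFKM share was 15.9% and 20.4% in Control2 and 39.5% and 38.4% after A485. Lengths here join the exons of all annotated transcripts, 7246 bases for PFKM, 7774 for PFKP and 8926 for PFKL. The canonical transcripts have 3090, 2626 and 2907 bases, so the order of subunits within a library depends on the length used. After MS-275 the PFKP share was 62.5% and 60.1%, against 53.2% and 48.5% in Control3. The PFKL share was 15.5% and 18.0%, against 23.5% and 31.3%. After pyruvate the PFKP share was 66.9% and 68.0%, against 52.2% and 51.5% in Control6, so that the libraries did not overlap in any of the 3 comparisons. With 2 libraries against 2, an exact permutation test, two-sided, cannot go below 0.333, and these shares are a description. Of the exon bases of PFKM, 7.12% overlap a gene on the opposite strand. The GC content of the PFKP, PFKM and PFKL canonical transcripts was 57.8%, 50.4% and 63.4%, and its part in the pyruvate shares was not tested.

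PFKFB3, the isoform with a high ratio of kinase to phosphatase activity (hg38 chr10:6144934-6254644), and PFKFB4, a hypoxia-inducible isoform (hg38 chr3:48517684-48562015), had the largest member responses to pyruvate. PFKFB4 went from 2401 and 2264 in Control6 to 439 and 457. It fell by 2.38 on the log2 scale (SE 0.10, limma adjusted p 1.70e-09), at the 1.93 percentile of all genes. PFKFB3 went from 9791 and 8903 to 2659 and 2858 and fell by 1.76 (SE 0.07, limma adjusted p 1.72e-09). Neither changed by the test after A485. PFKFB3 measured 3214 and 4021 in Control2, and the A485 libraries fell between them at 3256 and 3386 (log2 fold change -0.11, SE 0.18, limma adjusted p 0.710), and its log2 fold change was 0.28 with equal library totals. PFKFB4 measured 292 and 518 in Control2, and A485 libraries had 255 and 284 (log2 fold change -0.53, SE 0.35, limma adjusted p 0.358). After MS-275 the PFKFB4 counts were 725 and 1485, against 475 and 647 in Control3, without overlap (log2 fold change 0.90, SE 0.47, limma adjusted p 0.618). PFKFB3 counts were 4001 and 6489, against 2539 and 4087, and the groups overlapped (log2 fold change 0.66, SE 0.43, limma adjusted p 0.698).

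**Figure D3:**
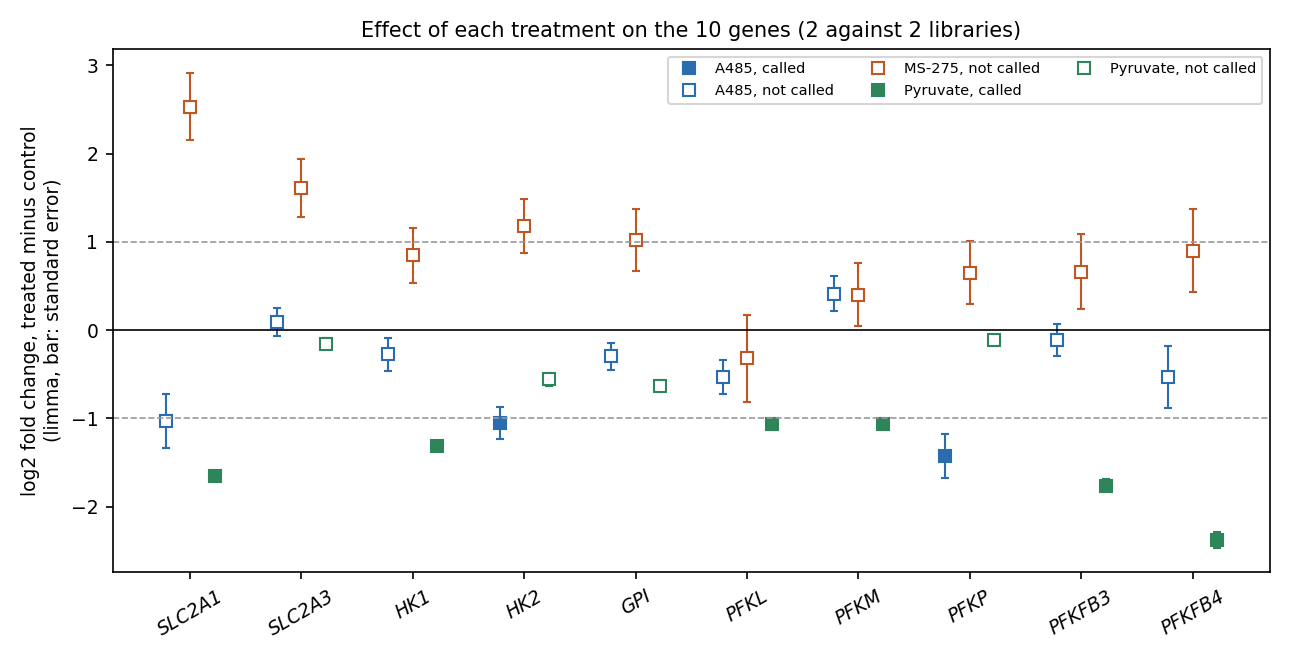
Log2 fold changes of the 10 genes (treated minus control, 2 against 2 libraries) with bars for the limma standard error, in blue for A485, orange for MS-275 and green for pyruvate, where filled squares are called genes and dashed lines mark a log2 fold change of 1 either way. The 9 positive MS-275 values are all open, and the 8 filled squares, 2 for A485 and 6 for pyruvate, are all below 0.

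The MS-275 libraries of replicate 2 stood apart from those of replicate 1 in both groups. The median absolute log2 difference between the libraries of a group was 0.58 in Control3 and 0.61 after MS-275, against at most 0.33 in the other comparisons. These differences followed GC content (Spearman rho across genes 0.37 in Control3 and 0.46 after MS-275), which is a description over genes that share their libraries. Within replicate numbers the sign was the same under both numbers for all 10 members. The share of all genes with such agreement was not counted, so it cannot be read as particular to these members. With the replicate block in the limma fit, 7452 of 15883 genes had an unadjusted p under 0.05, against 1730 without the block. SLC2A1 differed by 2.45 on the log2 scale between the libraries numbered 1 and by 2.62 between those numbered 2. The pairs of differences were 1.41 and 1.81 for SLC2A3, 1.37 and 1.0 for HK2, and 0.99 and 1.04 for GPI. They were 0.69 and 1.0 for HK1, 0.61 and 1.20 for PFKFB4, 0.66 and 0.67 for PFKFB3, 0.59 and 0.71 for PFKP, and 0.29 and 0.52 for PFKM. For PFKL both were negative, at -0.24 and -0.39. Nothing in the labels says that a number marks a shared batch, so these are values and not a test.

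The pyruvate comparison had a trend on GC content that bears on every member. Across 11888 genes with an annotated transcript the log2 fold change had a Spearman rho of -0.72 with GC content (-0.11 for A485 and -0.02 for MS-275), again a description across genes. Over 10 bins of GC content with about equal numbers of genes, its median was 1.72 in the lowest bin and -1.21 in the highest. Members have 45.5% (SLC2A3) to 63.4% (PFKL) GC, so most lie in the part of the range where genes fell. PFKL had a log2 fold change of -1.06 in a bin with a median of -1.21, and GPI -0.63 in a bin with a median of -0.69, so both fell about as much as their neighbours in GC content. PFKFB4 was 1.55 below the median of its bin, SLC2A1 0.97 below and PFKFB3 0.93 below.

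When the trend on GC content and transcript length was taken out of each library, 3 of the 6 called members kept their call. PFKFB4 then fell by 1.63, PFKFB3 by 1.19 and SLC2A1 by 1.05 (the limma adjusted p was 1.09e-09 for SLC2A1 and 3.25e-08 for PFKFB4). HK1 and PFKM both fell by 0.69 (limma adjusted p 8.47e-08 and 1.26e-06), which is under the limit. PFKL stood at 0.10 (limma adjusted p 0.127) and was no longer called. PFKP turned to 0.89 (limma adjusted p 4.48e-08), and SLC2A3 moved to -0.85 (limma adjusted p 8.86e-08). HK2 stood at -0.49 and GPI at -0.17. Among all genes 13.2% were called lower in this fit.

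**Figure D4:**
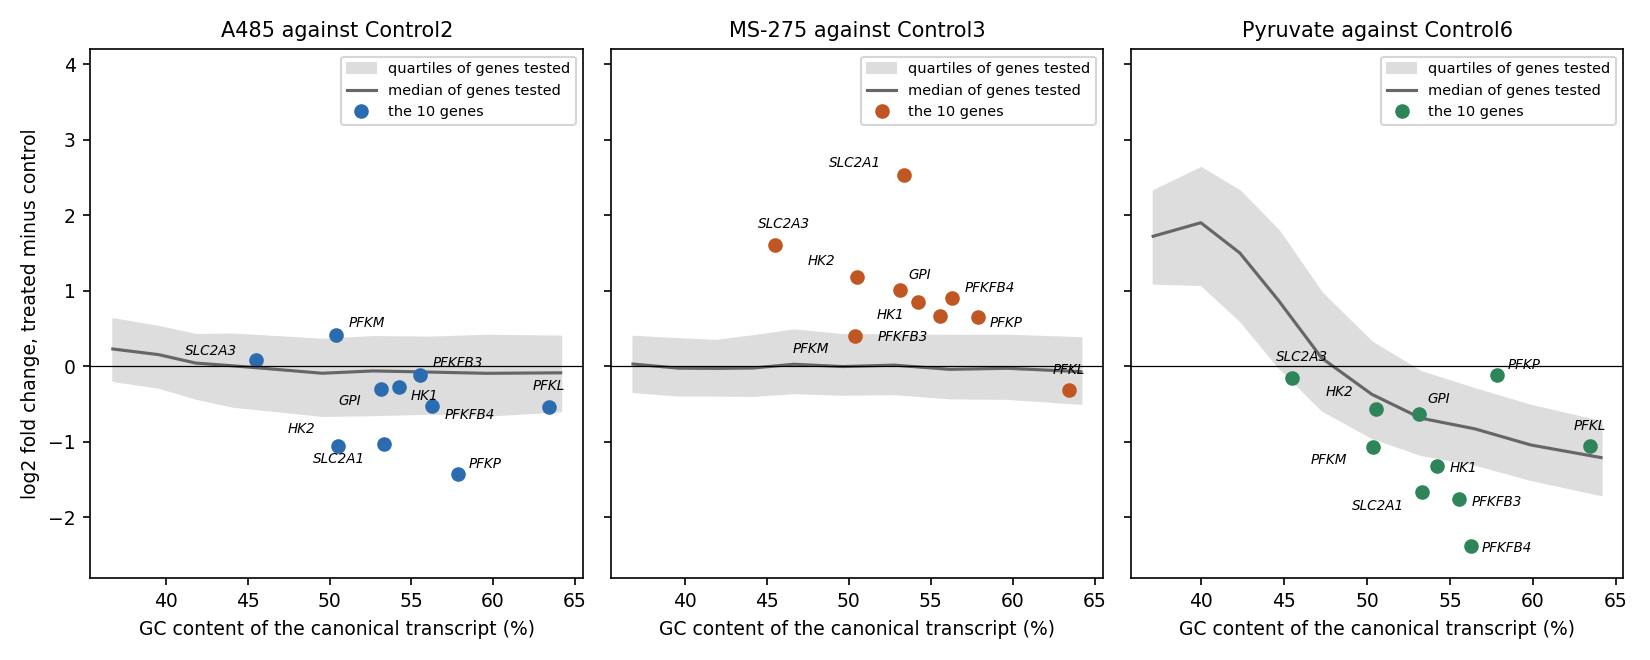
Log2 fold change (treated minus control) against GC content of the canonical transcript, with 1 panel for each comparison, where the line is the median and the band the quartiles of genes tested in 10 bins of GC content, and the points are the 10 genes. In the pyruvate panel the median runs from 1.72 in the lowest bin to -1.21 in the highest, and PFKFB4 lies 1.55 below the median of its bin.

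Other states of the cells also differed between some of these libraries. The 6 proliferation genes MKI67, TOP2A, CCNB1, CDK1, PCNA and MCM2 together held 62.1 and 57.1 RPM in Control6 and 437 and 442 after pyruvate. They held 425 and 240 in Control3 and 89.5 and 92.9 after MS-275. In Control2 they held 790 in replicate 1 and 261 in replicate 2, and in A485 libraries 374 and 265, so that the Control2 libraries stand apart from each other. SLC2A1, SLC2A3, HK2, PFKL, PFKM, PFKFB3 and PFKFB4 differed between the same 2 libraries in the opposite sense. HK1, GPI and PFKP differed in the same sense, though GPI only slightly (4874 and 4783). After A485, 7 of 8 fibroblast markers were called lower, including DCN, PDGFRB and LUM, and their summed level was 12878 and 13897 RPM, against 31424 and 31506 in Control2. After pyruvate CDKN2A, the senescence-associated cell cycle inhibitor p16, fell from 1628 and 2115 to 197 and 212 normalized counts. With the GC and length trend removed its log2 fold change was -2.08, against -3.18 before. Pyruvate log2 fold changes of the 6 proliferation genes then ran from 0.90 (CCNB1) to 4.44 (MKI67), against 0.76 (MCM2) to 5.35 (TOP2A) before. What part these states had in the member values was not tested.

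Effects of the treatments were compared directly as differences of log2 fold changes, with no shared controls. For A485 minus MS-275, 2 of 10 members passed (limma adjusted p under 0.05), beside 3.81% of 15130 genes. SLC2A1 differed by -3.56 (SE 0.54, adjusted p 0.0164) and HK2 by -2.23 (SE 0.34, adjusted p 0.0166). None passed without A485 replicate 1, A485 replicate 2 or Control2 replicate 2, and 1 passed without Control2 replicate 1. For A485 minus pyruvate 6 members passed, beside 65.4% of 11993 genes. For MS-275 minus pyruvate 8 members passed, beside 41.1% of 12005 genes, led by SLC2A1 at 4.19 (SE 0.37, adjusted p 0.000757) and PFKFB4 at 3.28 (SE 0.50, adjusted p 0.00336). PFKL and PFKP were the members that did not pass there. The last 2 contrasts carry the GC trend of the pyruvate comparison, and the spread was shared between tables whose replicates differ unequally.

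Across the 3 comparisons, 7 members had a log2 fold change below 0 with A485, above 0 with MS-275 and below 0 with pyruvate. They were SLC2A1, HK1, HK2, GPI, PFKP, PFKFB3 and PFKFB4, and 13.8% of 11989 genes tested in all comparisons had this sign pattern. With equal library totals it was left in SLC2A1, HK2 and PFKFB4 and in 5.60% of genes. After removal of the GC and length trend it was present in 6 members and in 13.1% of genes.

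Levels between genes were compared as RPKM, that is RPM per kilobase of exon. The exons of all annotated transcripts were joined for this, 6614 bases for SLC2A1 and 7774 for PFKP. Their canonical transcripts have 3384 and 2626 bases, so the order of genes depends on the length used. In Control2, PFKP led with 44.9 and 30.6 and SLC2A1 followed with 22.1 and 35.8, ranges that overlap. HK1 had 30.1 and 23.3 and cannot be placed apart from SLC2A1. PFKFB4 was lowest with 1.11 and 1.77, and HK2 next lowest with 6.46 and 6.55. Control3 had the same order at both ends, with 28.5 and 38.2 for PFKP, 21.1 and 29.6 for SLC2A1 and 1.86 and 2.55 for PFKFB4. In MS-275 libraries SLC2A1 was first with 106 and 161, ahead of PFKP with 39.8 and 55.6, and the values of these genes did not overlap. SLC2A1 was also first in Control6 with 194 and 192, and after pyruvate it held 75.9 and 75.7, beside 64.2 and 66.7 for PFKP. PFKFB4 remained the lowest member in every group, at 3.03 and 3.14 after pyruvate.

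Ratios of paralogues within a library describe the same shifts without a size factor. The SLC2A3 to SLC2A1 ratio per kilobase was 0.517 and 0.319 in Control2 and 0.995 and 0.780 after A485. It was 0.578 and 0.446 in Control3 and 0.282 and 0.255 after MS-275, and 0.107 and 0.109 in Control6 and 0.303 and 0.311 after pyruvate. The ratio was thus higher in both libraries after A485 and pyruvate and lower in both after MS-275, without overlap. The HK2 to HK1 ratio was 0.214 and 0.281 in Control2 and 0.152 and 0.135 after A485, and 0.221 and 0.224 in Control6 and 0.367 and 0.386 after pyruvate. In the MS-275 comparison it was 0.25 and 0.255 in Control3 and 0.399 and 0.255 in treated libraries, which overlap. The PFKFB4 to PFKFB3 ratio was 0.246 and 0.255 in Control6 and 0.165 and 0.160 after pyruvate. Among the 5 ratios in 3 comparisons the exact permutation p was 0.333 or 0.667. The pyruvate comparison has a trend on GC content, and canonical transcripts have 45.5% GC for SLC2A3 and 53.3% for SLC2A1. With the GC and length trend removed, the pyruvate log2 fold changes were -0.85 for SLC2A3 and -1.05 for SLC2A1, against -0.15 and -1.66 before. They were -0.49 and -0.69 for HK2 and HK1, against -0.56 and -1.32. They were -1.63 and -1.19 for PFKFB4 and PFKFB3, against -2.38 and -1.76. The part of the trend in these ratios was not tested.

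The rest of the pathway was read from lists of related genes. Over all genes tested, 3.31% were called higher and 7.06% lower after A485, 0% and 0% after MS-275, and 31% and 23.1% after pyruvate. With the GC and length trend removed, the pyruvate shares were 15.6% and 13.2%. Counts of called genes in this and the next lists stand beside these shares and were not tested against them. In the lower glycolysis list, which runs from aldolase to lactate export, 14 of 16 genes were tested. After A485, 3 were called lower and none higher, with a median log2 fold change of -0.51. The called genes were ENO1 (enolase, -1.56), GAPDH (-1.45) and SLC16A3 (the lactate exporter MCT4, -1.16), with limma adjusted p of 0.0139 for GAPDH and 0.0168 for SLC16A3. None was called after MS-275, where the median was 1.0 and 13 of 14 lay above 0. After pyruvate 9 were called lower and 2 higher, with a median of -1.08. SLC16A1, the lactate and pyruvate transporter MCT1, rose from 259 and 251 to 2457 and 2500 (log2 fold change 3.28, limma adjusted p 3.18e-10), LDHB rose by 2.48 (limma adjusted p 3.36e-05) and SLC16A3 fell by 1.94 (limma adjusted p 2.08e-10). With the GC and length trend removed 2 genes were called lower and 2 higher, and SLC16A1 stood at 1.55.

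Among the branches that leave glucose 6-phosphate, 4 of 19 genes were called lower after A485 and none higher (median -0.22). TKT (transketolase) fell by 2.31 and TALDO1 (transaldolase) by 1.51 on the log2 scale (limma adjusted p 0.00189 and 0.00453). None passed after MS-275 (median 0.17). After pyruvate 7 were called higher and 4 lower (median 0.33), beside 31% and 23.1% of all genes. The largest were PGM2, UGP2 and PGM3 at 3.73, 2.92 and 2.86 (limma adjusted p 0.000146, 4.51e-09 and 4.93e-09). With the GC and length trend removed 3 were called higher and 2 lower, and these 3 genes stood at 2.07, 1.44 and 0.89.

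Other glucose transporters and upper glycolysis enzymes went their own ways. After A485, the myo-inositol transporter gene SLC5A3 went from 1212 and 1819 to 5980 and 5659 (log2 fold change 1.97, limma adjusted p 0.00657). SLC2A13, a proton-coupled myo-inositol transporter, rose by 1.01 (limma adjusted p 0.0436). So 2 of the 8 genes tested in the transporter list were called higher and none lower. That list also holds SLC2A4RG, which is not itself a transporter gene. TIGAR, which lowers fructose 2,6-bisphosphate, rose by 1.07 (limma adjusted p 0.0251) and HKDC1, a hexokinase-like gene with low counts, fell by 4.03 (limma adjusted p 0.0224). These were the 2 called of 6 tested in the list of other upper glycolysis enzymes. After pyruvate 4 of the 8 genes tested in the transporter list, SLC2A4RG among them, were called lower and 1 higher. SLC2A8 stood at -2.44, SLC2A6 at -2.41 and SLC2A12 at -2.13. With the GC and length trend removed 4 were called lower and none higher, SLC2A8 stood at -1.20, SLC2A6 at -1.18 and SLC2A12 at -4.07, and SLC2A13, called higher before (1.14), turned to -0.85. Of the 4 other upper glycolysis enzymes tested, 2 were called in each direction, with G6PC3 at -2.04, TIGAR at 2.01 and PFKFB2 at 1.35. With that trend removed none of these 4 was called, and TIGAR stood at 0.12. No gene of either list was called after MS-275, with medians of 0.44 and 0.14.

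Of 12 tested genes that sense glucose or oxygen, 1 was called higher and 1 lower after A485, beside 3.31% and 7.06% of all genes. TXNIP, which promotes the removal of GLUT1 from the cell surface, went from 3706 and 5119 to 20849 and 9936 (log2 fold change 1.72, limma adjusted p 0.0352). EPAS1, which encodes HIF-2 alpha, went from 26945 and 63371 to 3891 and 10191 (log2 fold change -2.71, limma adjusted p 0.0323). In the list of hypoxia response genes outside glycolysis 4 of 14 were called lower after A485 and none higher (median -0.92), with CA12 at -4.22, VEGFA at -2.50 and ADM at -2.29. After MS-275 none of 15 was called, the median was 0.90 and 14 lay above 0. Pyruvate gave no common direction in this list, with 4 called higher and 5 lower of 14 (median -0.20), and KDM3A at 3.16, P4HA1 at 3.11 and PDK1 at 2.68 were the largest. With the GC and length trend removed 3 were called in each direction, and these genes stood at 1.97, 1.56 and 0.65, so that PDK1 was no longer called. In the sensing list pyruvate called 2 higher and 3 lower of 12, with PRKAA1 (AMP-activated kinase subunit) at 2.10, TXNIP at -1.56 and AKT2 at -1.20. With the GC and length trend removed TXNIP stood at -2.49, PRKAA1 at 0.25 and AKT2 at -0.59.

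Genes with the pattern most like a member were sought over the 12 libraries, using log2 values less the control mean of the same comparison, among 11988 other genes. For SLC2A1 the closest were DUSP5-DT, PLOD1, ANO10, VSIR and ALAS1, with Pearson r from 0.976 to 0.980. PLOD1 is a collagen lysyl hydroxylase and ALAS1 starts haem synthesis. For HK2 they were RARA, WNT16, TCF21, HHEX and SRXN1 (r from 0.972 to 0.984), of which RARA is a retinoic acid receptor and SRXN1 a sulfiredoxin. For PFKFB4 they were HM13, MLEC, OTUD5, ST6GALNAC4 and PRPS1 (r from 0.990 to 0.994), and their pattern is mainly the fall with pyruvate. These coefficients describe 12 points from 3 comparisons that carry a few large shifts, and no p is attached.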

How the data were processed

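Total RNA from 12 IMR90 libraries in 6 groups of 2 was analysed, and 8 mouse muscle libraries were not used here. Per the labels and the submitters' processing notes, the authors trimmed reads with Trim Galore (version 0.6.10), aligned them with HISAT2 (version 2.2.1) to hg38 and used featureCounts (version 2.0.6) for counting and DESeq2 (version 1.34.0) for normalization. The deposited unit is thus a signal: whole reads of a gene over the size factor of its library. The annotation and strand setting are not given in the sources used here, so overlapping, antisense and near-identical genes may share reads.

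Values were taken as log2(value + 1), which understates changes of low genes, keeping genes whose 4 libraries averaged 10 or more. Tests used limma (version 3.58.1, R version 4.3.3) with a mean-variance trend, without covariates, adjusted by Benjamini-Hochberg across the genes tested, and contrasts over 8 libraries for differences of effects. Whole reads (tolerance 0.001) were recovered for 100% of values, and edgeR (version 4.0.16) and DESeq2 (version 1.42.0) were run on them for A485. Replicates never lay within sampling noise (chi-square per gene 4.54 to 456). GC content, lengths and positions came from GENCODE on hg38, matched for 98.4% to 99.0% of genes. The trend was fitted with splines of 5 degrees of freedom. Fits were tested on simulated data. Members and lists were chosen with earlier results of these data known. The text names all 10 members, at most 3 called genes per list and comparison with the largest change, and the 5 genes most like SLC2A1, HK2 and PFKFB4. Genes named for markers or proliferation are examples. A gene that this rule would name is not reported here. Alternatives covered pseudocount, filter, scaling, trend, GC content, replicate number and leaving out each library.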

Additional observations from a re-analysis of the deposited data

Results flagged for a closer look

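Several members responded differently to a pair of treatments, by the limma test of the difference between 2 effects with Benjamini-Hochberg adjustment (differences are of log2 fold changes, n = 2 libraries in each group). For A485 minus MS-275 these were SLC2A1 at -3.56 and HK2 at -2.23, or 2 of 10 members beside 3.81% of all genes. For A485 minus pyruvate they were PFKFB4 at 1.85 (adjusted p 0.00213), PFKFB3 at 1.64 (adjusted p 0.000130), PFKM at 1.48 (adjusted p 0.000408), HK1 at 1.04 (adjusted p 0.00172), HK2 at -0.49 (adjusted p 0.0326) and PFKP at -1.31 (adjusted p 0.00351). These are 6 of 10 members beside 65.4% of all genes, which is no more than the background. With the GC and length trend removed HK1 no longer passed (0.46, adjusted p 0.0522), PFKFB4 stood at 1.13 and PFKP at -2.30, and PFKL (-0.66, adjusted p 0.0145) and SLC2A3 (0.98, adjusted p 0.000692) passed. In that fit 6174 of 11868 genes passed. For MS-275 minus pyruvate they were SLC2A1 at 4.19, PFKFB4 at 3.28, PFKFB3 at 2.42 (adjusted p 0.00594), HK1 at 2.16 (adjusted p 0.00160), SLC2A3 at 1.76 (adjusted p 0.00378), HK2 at 1.74 (adjusted p 0.00217), GPI at 1.65 (adjusted p 0.00822) and PFKM at 1.47 (adjusted p 0.0130), or 8 of 10 members beside 41.1% of all genes. With the trend removed 8 members passed as well, beside 4327 of 11880 genes. The cells of the pyruvate and of the other experiments may have been in different states, and their part in these differences was not tested.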

How the results depend on the processing

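Counts of called members depended on scaling, GC content and the replicate number. For A485 the 2 members called lower became 1 with equal library totals, quantile normalization or the GC and length trend removed, each with or without the replicate block, 3 with the block alone (SLC2A1 added, limma adjusted p 0.00596), 0 without the intensity trend and 0 with any 1 library left out. The count tests run on A485 gave 2 (edgeR) and 3 (DESeq2) and were not run for the other comparisons. For MS-275 the 0 members called higher became 4 with the replicate block, beside 1230 of 15883 genes. With the block and the trend removed they became 4 (1176 of 15636 genes). They became 3 with the block and equal totals (981 of 15883) or quantile normalization (1118 of 15883). In a shared fit over all 12 libraries they became 4 (220 of 11989). The SLC2A1 log2 fold change was 2.30 without Control3 replicate 1 and 2.77 without Control3 replicate 2. For pyruvate the 6 called lower became 3 with quantile normalization or the trend removed and 4 with equal totals (PFKL and PFKM lost), with or without the block. For A485 minus MS-275 the 2 that passed became 6 with the trend removed. In that fit 1122 of 14916 genes passed, against 576 of 15130 in the main fit. Block fits combined with scaling, and differences with the trend removed, were added after seeing the data.

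Directions turned in a few cases. With equal totals, with or without the block, A485 values became 0.10 (GPI), 0.12 (HK1) and 0.28 (PFKFB3) and pyruvate values 0.19 (PFKP) and 0.16 (SLC2A3). With quantile normalization they became 0.0017 (PFKFB3, A485), 0.17 (PFKP) and 0.16 (SLC2A3), and with the trend removed 0.10 (PFKL) and 0.89 (PFKP). With 1 library left out PFKFB3 ranged from -0.28 to 0.047 for A485 and PFKL from -0.80 to 0.16 for MS-275. The cause was not tested.

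Deviations from the group mean correlated between same-numbered libraries at 0.316 (A485), 0.728 (MS-275) and 0.002 (pyruvate), but with 2 pairs and no label for a batch the libraries share only a number. Over all genes the block moved the calls from 0 to 1230 higher and 953 lower for MS-275, and for A485 from 532 to 870 higher. Having 2 libraries per group limits every test.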

Other observations

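SLC2A4, the gene of the insulin-regulated transporter GLUT4, was chosen after its values were seen. It measured 1.98 and 0 normalized counts in Control3 and 107 and 192 after MS-275, while the A485 comparison had 4.28 and 12.2 in Control2 and 3.37 and 13.4 in A485 libraries. The MS-275 difference did not pass (limma adjusted p 0.162), and the gene was not listed in the pyruvate table. SLC2A14, the neighbour of SLC2A3, had 61.4 and 40.4 in Control3 and 174 and 207 after MS-275 (log2 fold change 1.91, limma adjusted p 0.266).

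LDHA, the lactate dehydrogenase subunit that makes lactate, was also chosen after its values were seen. It measured 77153 and 81882 in Control6 and 79402 and 79856 after pyruvate, a log2 fold change of 0.00 (limma adjusted p 0.962), whereas 9 genes of the lower glycolysis list were called lower. Its transcript has 41.8% GC, and with the GC and length trend removed its log2 fold change was -1.24 (limma adjusted p 1.03e-10).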
